A study of Papio hamadryas with 160 samples.

Results

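The 3 microRNAs (miRNAs) hsa-miR-218-5p, hsa-miR-149-5p and hsa-miR-383-5p were followed through blood and brain of baboons. They are 3 of the 362 miRNAs in the processed table and were picked on these same values for their near absence from peripheral blood mononuclear cells (PBMC, the lymphocytes and monocytes of blood) against high levels in brain. The difference between blood and brain is therefore given as a description without a test. The choice used blood against brain and not region against region, but earlier results of these data were known when it was made. Differences between brain regions were tested.

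Small RNA was sequenced from 76 libraries of 10 baboons (Papio hamadryas) to ask whether miRNA levels in blood follow those in brain. Group A held 4 adult females euthanized with pentobarbital, with PBMC and the amygdala (AMG), the paraventricular nuclei of the hypothalamus (PVN, labelled hypothalamus), the dorsomedial prefrontal (dmPFC), dorsal anterior cingulate (dACC), lateral and medial orbitofrontal (lOFC, mOFC) and posterior cingulate (PCC) cortex. Group B held 5 males and 1 female, controls of a pregnancy study that were exsanguinated under anesthesia, with PBMC and the hippocampus (HC, under the heading of dentate gyrus in the processed table), cerebellum (CB), dorsolateral prefrontal (dlPFC), motor (MC), entorhinal (EC), posterior parietal (PPC) and occipital (OC) cortex. No treatment was compared, although animals had earlier been in other studies and in clinical care. Each tissue of an animal gave 1 library, and the AMG of A4, CB of B2, MC of B4 and OC of B6 were not analysed here. All animals were sedated with ketamine and kept under isoflurane. The groups differed in sex, age, euthanasia and freezing as well as in the regions taken, so these differences and a difference between the groups cannot be told apart, and each group was analysed on its own.

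A miRNA is cut from a hairpin transcript and guides the silencing complex to messenger RNAs that pair with its seed, which lowers their translation and stability. In the human genome hsa-miR-218-5p is made from introns of both SLIT2 and SLIT3, genes of axon guidance proteins, and in mice it is best known from motor neurons. The hairpin of hsa-miR-149-5p lies in GPC1, which encodes a heparan sulfate proteoglycan of the cell surface, and that of hsa-miR-383-5p in SGCZ, which encodes a sarcoglycan.

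Levels are given as RPM, reads scaled to a fixed total (1e6) of mapped miRNA reads per library. PBMC libraries of Group A held 1584760 to 4899936 recovered reads, those of Group B 707977 to 1208336, and brain libraries 1425619 to 7036396. With 0 reads in a library, a level worth 3 reads is still possible, and this limit came to between 0.612 and 1.89 RPM for blood in Group A and between 2.48 and 4.24 RPM for blood in Group B. Such limits and the intervals below cover counting error only, as reads carried no molecular identifiers. The leukocyte miRNA hsa-miR-142-5p stood at 34894 RPM or more in every PBMC library and at 579.5 RPM or less in every brain library, and the neuronal hsa-miR-124-3p at 16.1 RPM or less against 1842 RPM or more. Libraries of animal A4 stood apart from the rest of Group A, with a median correlation of 0.836 among themselves and of −0.442 with the other animals after the region means were taken off, so values without A4 are given with the called results for Group A.

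All 3 miRNAs had few reads or none in blood and 127 to 3629.7 RPM on average in every brain region. In PBMC of Group A, hsa-miR-218-5p was read 15, 4, 0 and 3 times (3.06, 2.52, 0 and 1.32 RPM in A1 to A4). In PBMC of Group B it was read 1 to 7 times, with a lowest level of 0.83, a median of 4.26 and a highest of 6.25 RPM. The PBMC library of A3 held no read of it, and the highest blood level of any animal lay far under its lowest brain level of 336 RPM, in the OC of B3.

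hsa-miR-149-5p was the member with the most reads in blood. In PBMC of Group A its levels were 2.65, 3.79, 2.75 and 2.65 RPM in A1 to A4, from 6 to 13 reads. In PBMC of Group B they ran from 5.79 to 18.4 RPM with a median of 9.97, from 7 to 13 reads. Every PBMC library of Group B thus lay above every PBMC library of Group A, and all lay under the lowest brain level of 832 RPM, in the CB of B1.

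hsa-miR-383-5p was nearly unread in blood. A1, A2 and B6 each gave 1 read in PBMC (0.2, 0.63 and 0.83 RPM), and the other 7 animals gave none. Its lowest brain level was 73.5 RPM, in the CB of B3, so blood and brain did not overlap for this miRNA either. The members were picked for this difference, and the share of all miRNAs without such overlap is not given here.

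Averaged over animals, brain of Group A held 1394 ± 169.8 RPM of hsa-miR-218-5p, 2134 ± 523 RPM of hsa-miR-149-5p and 417 ± 79.0 RPM of hsa-miR-383-5p (SD, n = 4). Brain of Group B held 954 ± 181, 1665 ± 219.7 and 396 ± 74.7 RPM in the same order (SD, n = 6). Over the pooled PBMC reads, brain was 785-fold above blood for hsa-miR-218-5p in Group A (exact Poisson 95% interval 518 to 1252) and 253-fold in Group B (167 to 403). A1 gave 15 of the 22 reads behind the first value, and without A1 the ratio was 1411 (685 to 3509) from 7 reads. For hsa-miR-149-5p the ratio was 755 (543 to 1084) in Group A and 162 (126 to 212) in Group B. The 2 reads and 1 read of hsa-miR-383-5p left its ratio wide, at 2580.4 (714 to 21308) in Group A and 2306 (414 to 91073) in Group B. Without A2 the former was 4152 (745 to 164002), and without B6 no read was left for the latter. With limma, PBMC were below brain for 60.5% of all 362 miRNAs of Group A and for 59.9% of Group B. The members were chosen on this contrast, so nothing is read from these shares.

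Neuronal miRNAs gave a background for the low blood levels of the members, whose own cell types were not tested. Over a list of 15 neuronal miRNAs, PBMC stood at a median of 0.518% of brain in Group A (0 to 3.58%) and at 0.984% in Group B (0 to 6.37%), against 33.0% and 40.6% over all miRNAs. hsa-miR-218-5p stood at 0.124% and 0.407%, hsa-miR-149-5p at 0.139% and 0.657%, and hsa-miR-383-5p at 0.0498% and 0.0348%, each within the range of that list. That range begins at 0 and the members were picked for low blood levels, so nothing is read from this. The miRNAs of the table had been listed by their reads in brain, not in blood. hsa-miR-124-3p, a miRNA of neurons, had 24 reads in PBMC of Group A and 37 in Group B, and its part in the blood levels of the members was not tested. In Group A 23 to 31 of the 362 miRNAs had a smaller share in blood than the members, and in Group B 22 to 46.

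**Figure D1:**
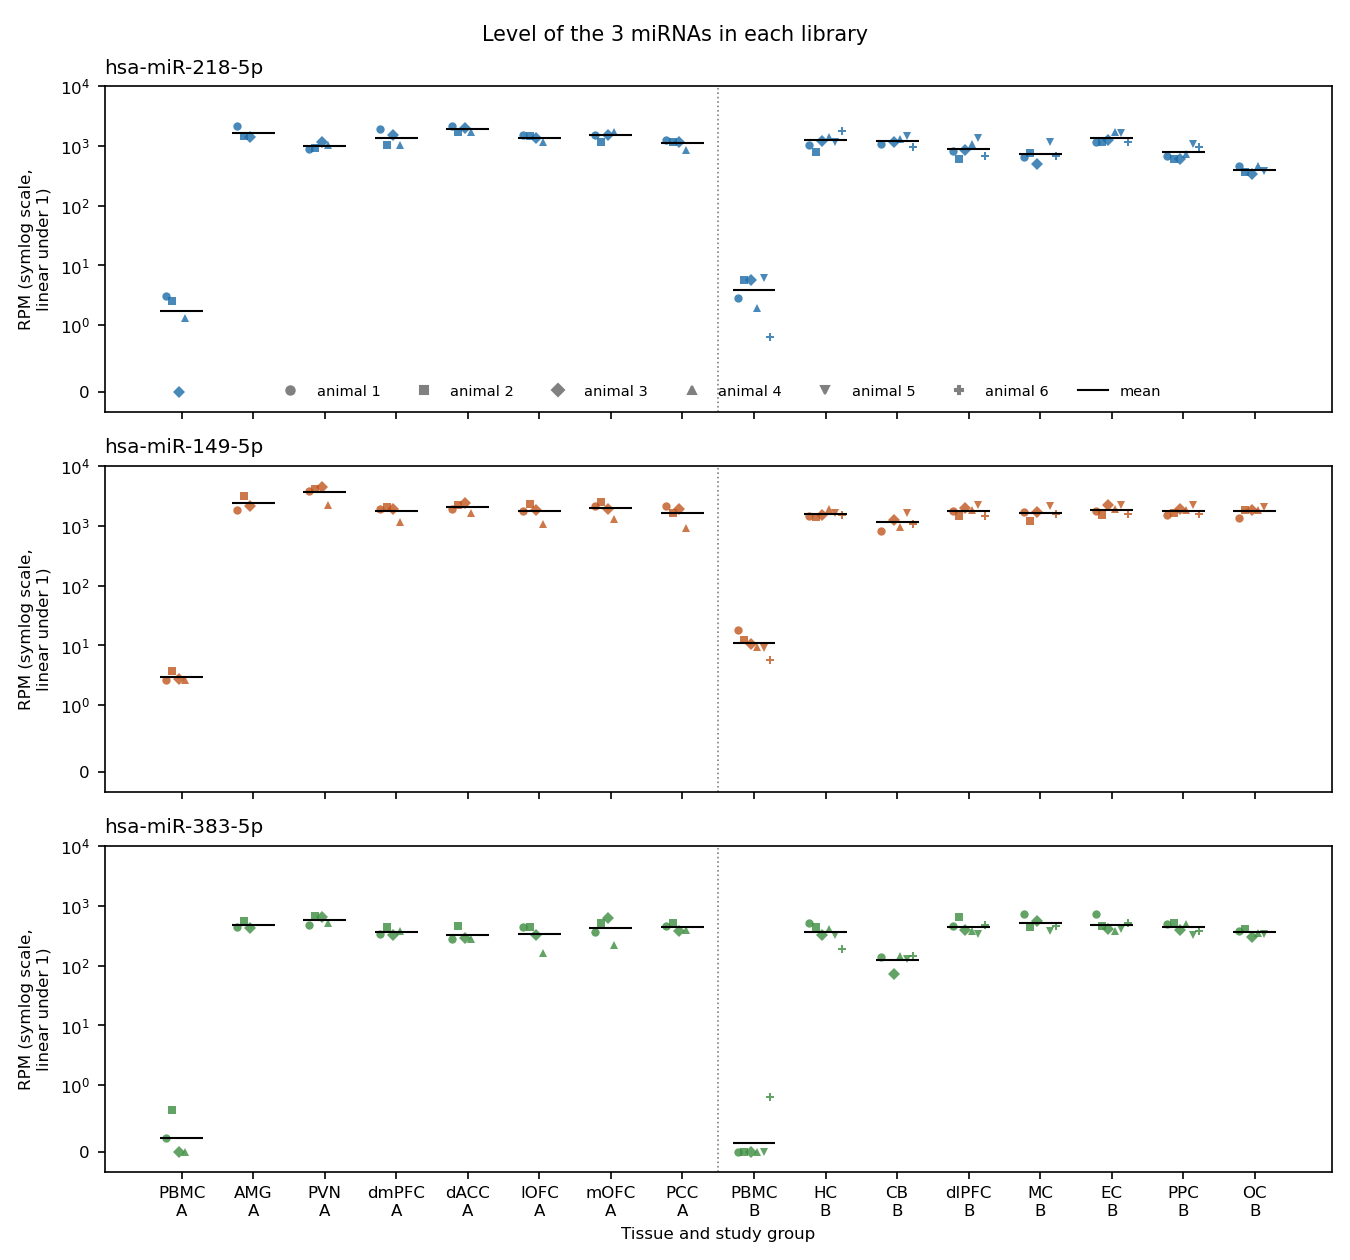
RPM of the 3 miRNAs (symlog axis, linear under 1 RPM) in each of the 76 libraries, by tissue and study group, with a symbol per animal number and a line at the mean. All PBMC points sit at 18.4 RPM or less and all brain points at 73.5 RPM or more.

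No relation between blood and brain was detectable over the 6 animals of Group B at this depth. For hsa-miR-218-5p, PBMC levels of 0.83 to 6.25 RPM met brain means of 712 to 1170.4 RPM with a Pearson r of −0.276 (two-sided exact permutation p = 0.596, adjusted p = 0.925) and a Spearman rho of 0.0857 (exact permutation p = 0.919, adjusted p = 0.983). For hsa-miR-149-5p r was −0.315 (exact permutation p = 0.543, adjusted p = 0.914) and rho −0.0857 (exact permutation p = 0.919, adjusted p = 0.983). B2, B4 and B6 each lack 1 region, so the brain means do not cover the same regions. Over the regions present in every animal r was −0.235 (exact permutation, adjusted p = 0.917) for hsa-miR-218-5p and −0.238 (exact permutation, adjusted p = 0.917) for hsa-miR-149-5p. Adjustment ran over the 340 miRNAs with reads in PBMC of Group B. The value of hsa-miR-383-5p, r of −0.240 (exact permutation p = 0.833, adjusted p = 0.977) and rho of −0.131 (exact permutation p = 1.0, adjusted p = 1.0), rests on a single read. Without the 2 animals farthest from the median in PBMC, r became 0.327 for hsa-miR-218-5p and −0.886 for hsa-miR-149-5p. In Group A, with 4 animals, the PBMC level of hsa-miR-218-5p was highest in A1, which also had the highest brain mean (1617 RPM). A3, with 0 PBMC reads, had a brain mean of 1435 RPM, above A2 (1279 RPM) and A4 (1246 RPM). For hsa-miR-149-5p A2 had the highest of both (2567 RPM in brain), with 6 reads in PBMC.

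Within brain, the members had different regional profiles. hsa-miR-218-5p varied 1.89-fold between the highest and lowest region mean of Group A and 3.35-fold in Group B, hsa-miR-149-5p 2.19-fold and 1.64-fold, and hsa-miR-383-5p 1.77-fold and 4.06-fold. Each region was compared with the mean of the 6 other regions of its group by limma on log2(RPM + 1) with the animal as a block, and p-values were adjusted by Benjamini-Hochberg over all 362 miRNAs at 0.05. Of the 42 contrasts of the 3 members, 15 passed (35.7%), 9 higher and 6 lower in the region, against 34.3% over all miRNAs in the same contrasts, so the members were called about as often as other miRNAs. In a piece of tissue, fewer cells of a type and less miRNA per cell cannot be told apart.

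Because RPM values share a total, a region in which many miRNAs rise or fall moves the rest, and the median over all miRNAs was away from 0 by more than 0.1 in 8 regions. On the log2 scale it was +0.52 in the PVN, −0.49 in the CB, +0.21 in the EC, −0.18 in the OC and the lOFC, −0.17 in the PCC, +0.15 in the dlPFC and −0.12 in the dmPFC. Each difference of a member below is therefore set against the median of its region and against a scaling by the median of ratios, under which these medians fell between −0.03 and 0.03.

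**Figure D2:**
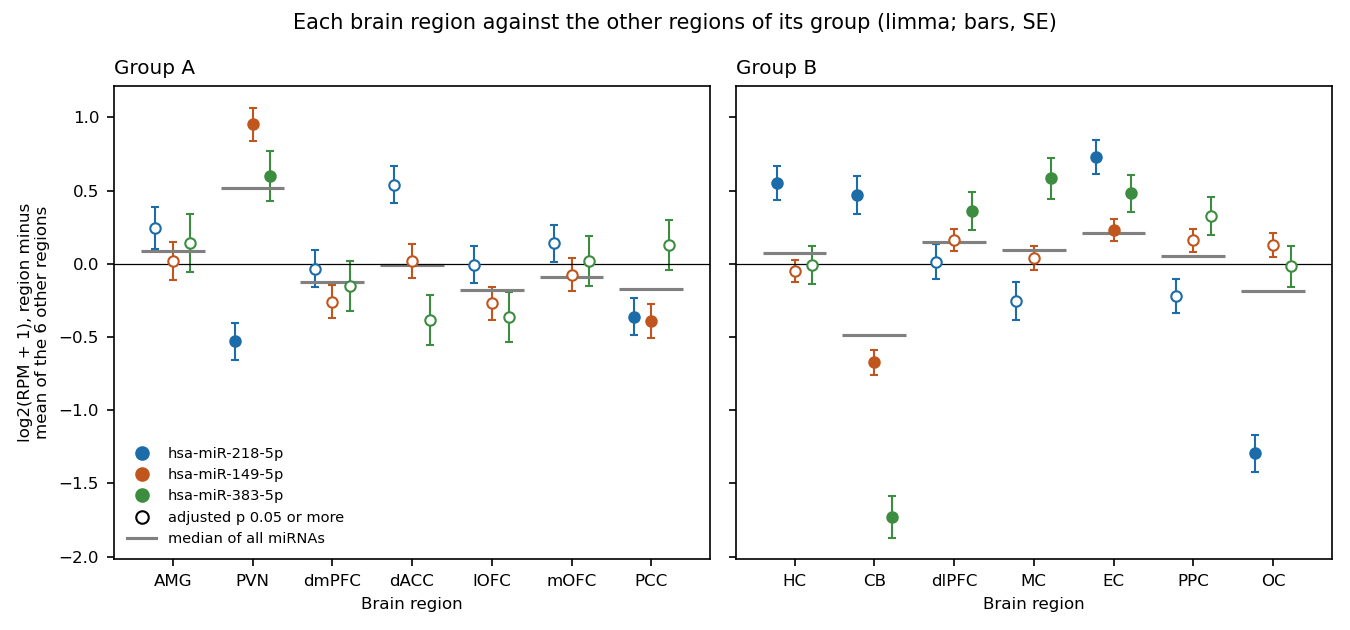
log2(RPM + 1) of each region minus the mean of the 6 other regions of its group for the 3 miRNAs (points, estimates; bars, SE; open points, adjusted p of 0.05 or more), with a grey line at the median of all 362 miRNAs. The lowest points are hsa-miR-383-5p in the CB (−1.73) and hsa-miR-218-5p in the OC (−1.29), and the highest is hsa-miR-149-5p in the PVN (0.95).

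hsa-miR-218-5p was low in the occipital cortex. In the OC it stood at 457, 365, 336, 461 and 384 RPM in B1 to B5. Every OC library lay under every other brain library of Group B, the lowest of which held 503 RPM (MC of B3). The share of all miRNAs that separate the OC in this way is not given here. The level in the OC was 0.408 times that of the other regions (log2 difference −1.29, SE 0.13, limma adjusted p = 7.82e-10) and was lower in 5 of 5 animals, where 51.7% of all miRNAs passed in either direction. It was −1.12 by the median of ratios and −1.24 without the CB. Of the 15 neuronal miRNAs 5 were higher and 1 lower in the OC, with a median log2 difference of 0.20 (9 higher and 1 lower by the median of ratios). Of the 3 choroid plexus miRNAs 2 were lower there (1 by the median of ratios), and their part in the low level was not tested.

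By RPM the entorhinal cortex and hippocampus had the highest mean levels of hsa-miR-218-5p in Group B. By the median of ratios its difference was larger in the cerebellum, given below, than in either. The HC exceeded the CB in 3 of 5 animals (mean paired log2 difference 0.13, SD 0.47). EC libraries ran from 1145 to 1694 RPM with a median of 1221, and HC libraries from 788 (B2) to 1779 RPM (B6) with a median of 1180.0. Both regions overlapped the CB. Of the other cortex only the dlPFC of B5 (1369.9 RPM) reached into the range of the EC, while the HC overlapped libraries of the dlPFC, MC and PPC. The EC was higher in 6 of 6 animals (log2 difference 0.73, SE 0.12, limma adjusted p = 3.26e-06), where 63.5% of all miRNAs passed, and 0.48 remained by the median of ratios. In the HC hsa-miR-218-5p was also higher in 6 of 6 animals (0.55, SE 0.12, limma adjusted p = 2.97e-04), where 43.9% passed, and 0.45 by the median of ratios. The oligodendrocyte list moved apart in these regions, with 4 of 4 members higher in the HC and 4 of 4 lower in the EC under all 5 scalings run. Its summed level was 8162 to 10305 RPM in the HC and 3790 to 7743 RPM in the EC. The 3 choroid plexus miRNAs were all higher in the HC under the same 5 scalings (1584 to 3296 RPM summed, against 866 to 4229 RPM elsewhere). Of the 15 neuronal miRNAs 8 were higher and 3 lower in the EC (8 and 7 by the median of ratios), and 3 were higher and 5 lower in the HC (2 and 8). The part of these cell types in the level of hsa-miR-218-5p was not tested.

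In the cerebellum hsa-miR-218-5p was high while most miRNAs were low by RPM. Its CB levels were 1074, 1174, 1316, 1474 and 950.5 RPM in B1, B3, B4, B5 and B6, within the range of the HC and EC libraries. It was higher than the other regions in 4 of 5 animals (log2 difference 0.47, SE 0.13, limma adjusted p = 0.00130), and in this region 84.0% of all miRNAs passed, 89 higher and 215 lower. By the median of ratios 144 were higher and 150 lower, but that scaling brings the median near 0 by construction. Whether the lean toward lower miRNAs came from the RPM scale was therefore not tested. For hsa-miR-218-5p the estimate was 0.96 by the median of ratios and 0.90 with edgeR.

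In Group A the mean level of hsa-miR-218-5p was lowest in the hypothalamus and highest in the anterior cingulate. PVN libraries held 871, 925, 1145 and 1047 RPM in A1 to A4, and dACC libraries 2172, 1718, 1957 and 1679 RPM. The dACC libraries all lay above the PVN libraries, and within each animal the PVN was under the mean of the other regions. The lowest library of the group was nonetheless the PCC of A4 (838 RPM). The PCC exceeded the PVN in 3 of 4 animals (mean paired log2 difference 0.14, SD 0.37). The PVN difference was −0.53 (SE 0.13, limma adjusted p = 7.77e-04), −0.61 without A4, −0.37 without A1 and −1.06 by the median of ratios. It ran against the median shift of the PVN, where 72.7% of all miRNAs passed, 227 higher and 36 lower.

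For the dACC the outcome depended on the tool, the scaling and the form of the model. hsa-miR-218-5p was higher there in 4 of 4 animals (log2 difference 0.54, SE 0.13), and 2 of the 362 miRNAs had a larger positive difference, but the adjusted p of limma was 0.0601. By limma 0.0% of all miRNAs passed in the dACC, 39 had an unadjusted p under 0.05, edgeR called 11 and DESeq2 called 14. hsa-miR-218-5p passed with edgeR (0.54, adjusted p = 0.00594), with DESeq2 (0.54, adjusted p = 0.00112), by the median of ratios (0.55, adjusted p = 0.0205), after quantile normalization (0.65, adjusted p = 0.00691) and with 1 difference per animal (0.55, adjusted p = 0.0309), and over all 15 alternatives the adjusted p ran from 0.00112 to 0.243. Without A4 the difference was 0.55 (limma adjusted p = 0.181).

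hsa-miR-149-5p was high in the hypothalamus. PVN libraries held 3767, 4095, 4419 and 2237 RPM in A1 to A4, and the highest library of the other regions was the AMG of A2 (3164 RPM). A1, A2 and A3 lay above all other libraries of the group, and in A4, where all levels were low, the PVN again exceeded the next region (dACC, 1608 RPM). The PVN was 1.94 times the other regions (log2 difference 0.95, SE 0.11, limma adjusted p = 2.28e-07), higher in 4 of 4 animals, and 0.98 without A4. The median of all miRNAs in the PVN was 0.52, and the difference of hsa-miR-149-5p was 0.42 by the median of ratios (limma adjusted p = 0.00127), 0.53 with edgeR and 0.41 with DESeq2. hsa-miR-7-5p and hsa-miR-375, miRNAs of endocrine and neuroendocrine cells, were higher in the PVN by 1.73 and 3.26 (limma adjusted p = 1.54e-06 and 2.64e-06). Their summed level was 2155 to 3500 RPM in the PVN and 358 to 1618 RPM elsewhere in Group A.

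Other marker lists moved in the PVN too. Of the 3 choroid plexus miRNAs 2 were higher and 1 lower under all 5 scalings run, with hsa-miR-204-5p up by 1.75 and hsa-miR-1298-5p by 4.15, and their summed level was 4909 to 6734 RPM against 1012 to 5985 RPM elsewhere. The 5 leukocyte miRNAs were all higher (616 to 941 RPM summed, against 279 to 691 RPM), but only 2 passed by the median of ratios, and none was higher after quantile normalization, where 1 was lower. Of the 4 erythroid miRNAs 2 were higher (1 by the median of ratios), with summed levels of 2039 to 3118 RPM that did not overlap the 838 to 1677 RPM elsewhere. The largest of the 4, hsa-miR-486-5p (mean of 1018 RPM over brain of Group A), was up by 1.37. By contrast, hsa-miR-451a (0.21) and hsa-miR-144-3p (0.39) did not pass. Of the 15 neuronal miRNAs 8 were higher and 5 lower (4 and 8 by the median of ratios), among them hsa-miR-124-3p at −1.44 and hsa-miR-128-3p at −1.32. No oligodendrocyte or vascular miRNA passed, although 3 of 4 and 3 of 5 were lower by the median of ratios. The part of these cell types in the PVN levels of the 3 members was not tested.

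In Group B hsa-miR-149-5p was nearly even over cortex and hippocampus and lower in the cerebellum. The CB held 832, 1251, 947, 1606 and 1069 RPM in B1, B3, B4, B5 and B6. These overlapped the other regions, whose lowest library held 1198 RPM (MC of B2), but in each of the 5 animals the CB was under the mean of its other regions. The difference was −0.67 (SE 0.08, limma adjusted p = 8.73e-09), near the median of all miRNAs there, and −0.18 by the median of ratios (limma adjusted p = 0.0334). The difference over the 7 regions of Group B (adjusted p of the limma F test 8.40e-07) was lost without the CB (adjusted p = 0.196), and that over the regions of Group A (1.48e-05) was lost without the PVN (adjusted p = 0.350).

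Among the other regions, hsa-miR-149-5p was higher in the EC (1534 to 2233 RPM, median 1828; log2 difference 0.23, SE 0.08, limma adjusted p = 0.00874) and lower in the PCC (2172, 1622, 1924 and 922 RPM; −0.39, SE 0.11, limma adjusted p = 0.0105). In the EC the median of all miRNAs was 0.21, and in the PCC it was −0.17. Neither difference passed by the median of ratios, where they were −0.01 and −0.18. hsa-miR-218-5p was likewise lower in the PCC (1247, 1164, 1180.3 and 838 RPM; −0.36, SE 0.13, limma adjusted p = 0.0305) and did not pass by the median of ratios (−0.15). A4 held the lowest PCC library of both, and without A4 neither passed (−0.32, limma adjusted p = 0.120, for hsa-miR-149-5p and −0.26, limma adjusted p = 0.181, for hsa-miR-218-5p). The call of hsa-miR-149-5p was also lost without A2 (−0.27), and that of hsa-miR-218-5p without A1 (−0.35) or A3 (−0.39). In the EC the call of hsa-miR-149-5p was lost without B3 (0.20). In the PCC 37.0% of all miRNAs passed, 17 higher and 117 lower.

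hsa-miR-383-5p set the cerebellum apart from all other regions. CB libraries held 140.4, 73.5, 146, 127 and 146 RPM in B1, B3, B4, B5 and B6. All lay under every other brain library of Group B, the lowest of which held 190.3 RPM (HC of B6). In the CB 84.0% of all miRNAs passed in either direction, and the share that separate it without overlap is not given here. The level was 0.302 times that of the other regions (log2 difference −1.73, SE 0.14, limma adjusted p = 7.51e-13) and lower in 5 of 5 animals, −1.56 without B3, −1.24 by the median of ratios and −1.0 after quantile normalization. The oligodendrocyte, vascular and leukocyte miRNAs of the lists were all lower in the CB as well, under all 5 scalings run (4 of 4, 5 of 5 and 5 of 5, with median log2 differences of −1.47, −1.12 and −1.28). Their summed levels in the CB, 2927 to 3652, 11454 to 15539 and 224 to 297 RPM, did not overlap those of the other regions, 3790 to 12893, 16349 to 48144 and 366 to 877 RPM. Of the 15 neuronal miRNAs 9 were lower and 3 higher there (7 and 7 by the median of ratios), of the 4 erythroid miRNAs 3 were lower and 1 higher (1 and 1), of the 3 choroid plexus miRNAs 2 were lower and 1 higher (1 and 1), and both neuroendocrine miRNAs were lower (1 and 0). The summed erythroid level was nonetheless higher in the CB (3541 to 5360 RPM, against 661.5 to 2646 RPM), where hsa-miR-486-5p was up by 1.97. The part of these cell types in the level of hsa-miR-383-5p was not tested.

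Outside the cerebellum the differences of hsa-miR-383-5p were small. MC libraries held 733, 439.8, 558, 385 and 451 RPM in B1, B2, B3, B5 and B6, EC libraries 379.5 to 731 RPM with a median of 436, and dlPFC libraries 342 to 643 RPM with a median of 429.7. These 3 regions overlapped one another. All were called higher (MC 0.58, SE 0.14, limma adjusted p = 0.00138; EC 0.48, SE 0.13, limma adjusted p = 0.00175; dlPFC 0.36, SE 0.13, limma adjusted p = 0.0259), with 30.9% of all miRNAs passing in the MC and 38.1% in the dlPFC. The dlPFC call was also lost without B2 (0.27) or B3 (0.35). None of the 3 passed once the CB, against which they had been averaged, was left out (0.30, 0.20 and 0.08), and by the median of ratios the MC alone passed (0.46).

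In Group A the highest level of hsa-miR-383-5p was in the PVN, at 471, 667, 658 and 509.7 RPM in A1 to A4. The highest library of the other regions was the mOFC of A3 (621 RPM), so the PVN overlapped them. The PVN difference of 0.60 (SE 0.17, limma adjusted p = 0.00347, 0.52 without A4) was near the median shift of 0.52 and came to 0.07 by the median of ratios and −0.07 after quantile normalization. In the dACC hsa-miR-383-5p was lower in 4 of 4 animals without passing the test (274, 461, 286 and 281 RPM; log2 difference −0.38, SE 0.17, limma adjusted p = 0.385; −0.46 without A4).

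**Figure D3:**
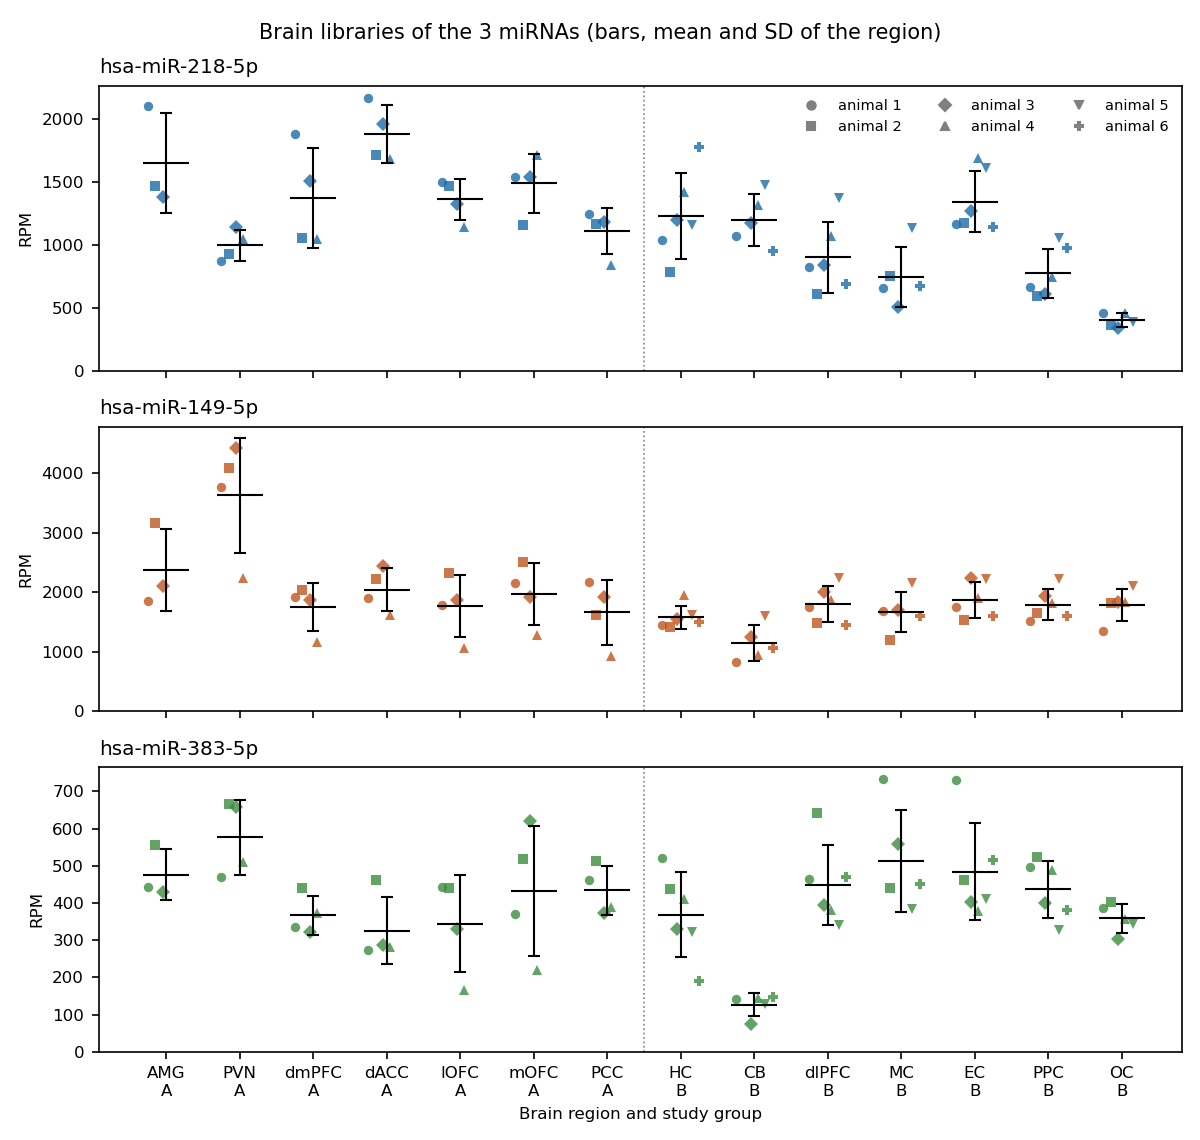
RPM of the 3 miRNAs in the 66 brain libraries (linear axis), by region and study group, with a symbol per animal number and bars for the mean and SD. hsa-miR-149-5p is highest in the PVN (mean 3629.7 RPM), hsa-miR-218-5p lowest in the OC (401 RPM) and hsa-miR-383-5p lowest in the CB (127 RPM).

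The remaining contrasts did not pass. None of the members was called in the AMG, dmPFC, lOFC, mOFC or PPC, where 8.84%, 18.8%, 6.35%, 0.0% and 23.8% of all miRNAs passed. In the mOFC limma called 0 miRNAs, 30 had an unadjusted p under 0.05, and edgeR and DESeq2 each called 1. hsa-miR-218-5p in the PPC, at 0.859 times the other regions in 6 of 6 animals (−0.22, SE 0.12, limma adjusted p = 0.180), passed by the median of ratios (−0.29). Over all regions at once, 69.1% of miRNAs differed in Group A and 91.7% in Group B by the limma F test, and the 3 members did so in both groups (adjusted p of 8.35e-04 and 2.30e-10 for hsa-miR-218-5p, 0.0257 and 1.03e-10 for hsa-miR-383-5p).

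In the order of region means, most neighbours did not differ beyond their spread, taken as a mean paired log2 difference larger than its SD over animals. For hsa-miR-218-5p the order in Group A was dACC (1882 RPM), AMG (1651), mOFC (1489.6), dmPFC (1372), lOFC (1361), PCC (1108) and PVN (997), with dACC above AMG and lOFC above PCC beyond the spread. In Group B it was EC (1343), HC (1231), CB (1198), dlPFC (899.6), PPC (773), MC (743) and OC (401), with CB above dlPFC and MC above OC beyond it. Only 2 of 6 steps were thus resolved in each group.

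The order of hsa-miR-149-5p in Group A was PVN (3629.7 RPM), AMG (2375), dACC (2042), mOFC (1966), lOFC (1764), dmPFC (1749.6) and PCC (1659.8), with PVN above AMG and mOFC above lOFC beyond the spread. In Group B it was EC (1874), dlPFC (1797), OC (1789.8), PPC (1789), MC (1669), HC (1576) and CB (1141), where only HC and CB were resolved. For hsa-miR-383-5p the order was PVN (577), AMG (476), PCC (434), mOFC (432), dmPFC (367), lOFC (344) and dACC (325) in Group A, with PVN and AMG resolved, and MC (513), EC (484), dlPFC (449), PPC (436), HC (369), OC (358) and CB (127) in Group B, with OC and CB resolved.

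**Figure D4:**
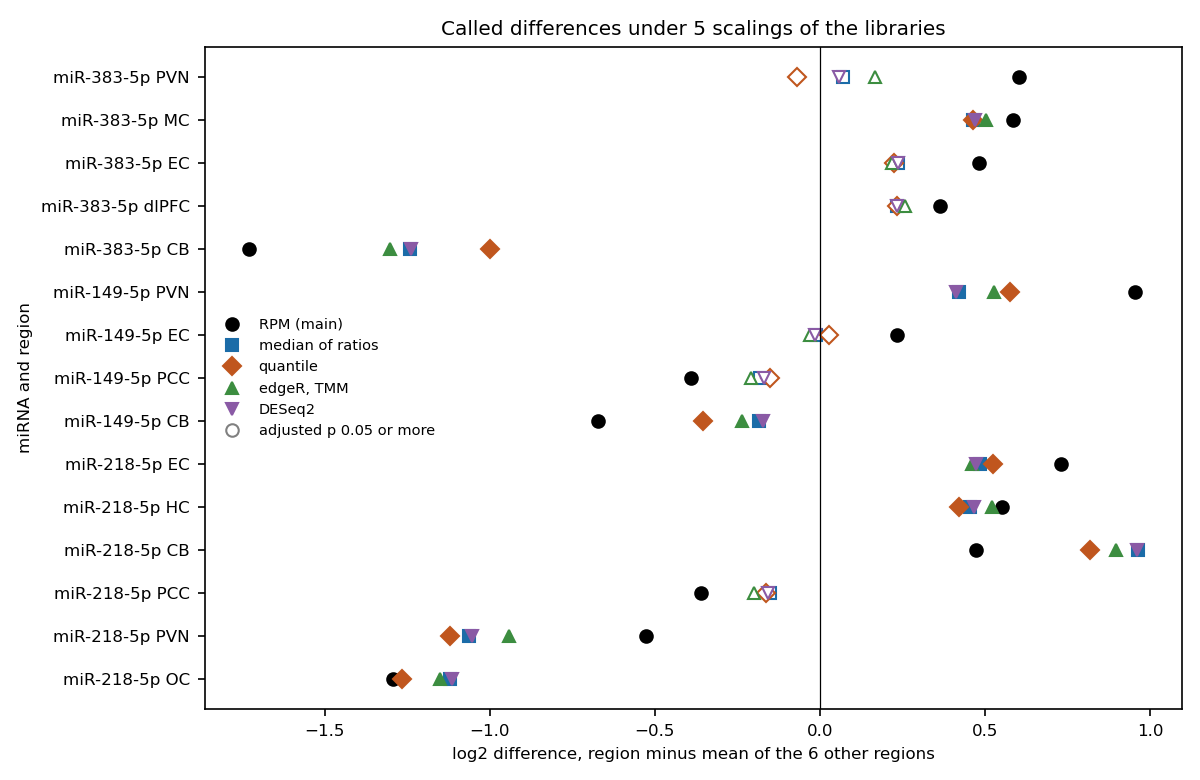
The 15 called differences of the 3 miRNAs on the log2 scale (x axis), each under RPM, the median of ratios, quantile normalization, edgeR and DESeq2 (symbols; open, adjusted p of 0.05 or more). hsa-miR-383-5p in the PVN moves from 0.60 to between −0.07 and 0.17, while hsa-miR-218-5p in the OC stays between −1.29 and −1.12.

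Ratios of the members within a library do not depend on its scaling, and some of them were high or low in the CB, OC or PVN. hsa-miR-218-5p stood at 6.50 to 16.0 times hsa-miR-383-5p in the CB, against 0.90 to 9.35 times in the other regions of Group B, where the HC of B6 alone reached into the range of the CB. In the OC this ratio was 0.91 to 1.29. Relative to hsa-miR-149-5p, hsa-miR-218-5p stood at 0.18 to 0.34 in the OC and at 0.30 to 1.39 elsewhere in Group B. In the PVN hsa-miR-218-5p was 0.23 to 0.47 times hsa-miR-149-5p, against 0.46 to 1.34 times in the other regions of Group A. It was 1.39 to 2.05 times hsa-miR-383-5p there, against 2.16 to 7.92 times, without overlap. How often other pairs of miRNAs separate these regions is not given here.

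**Figure D5:**
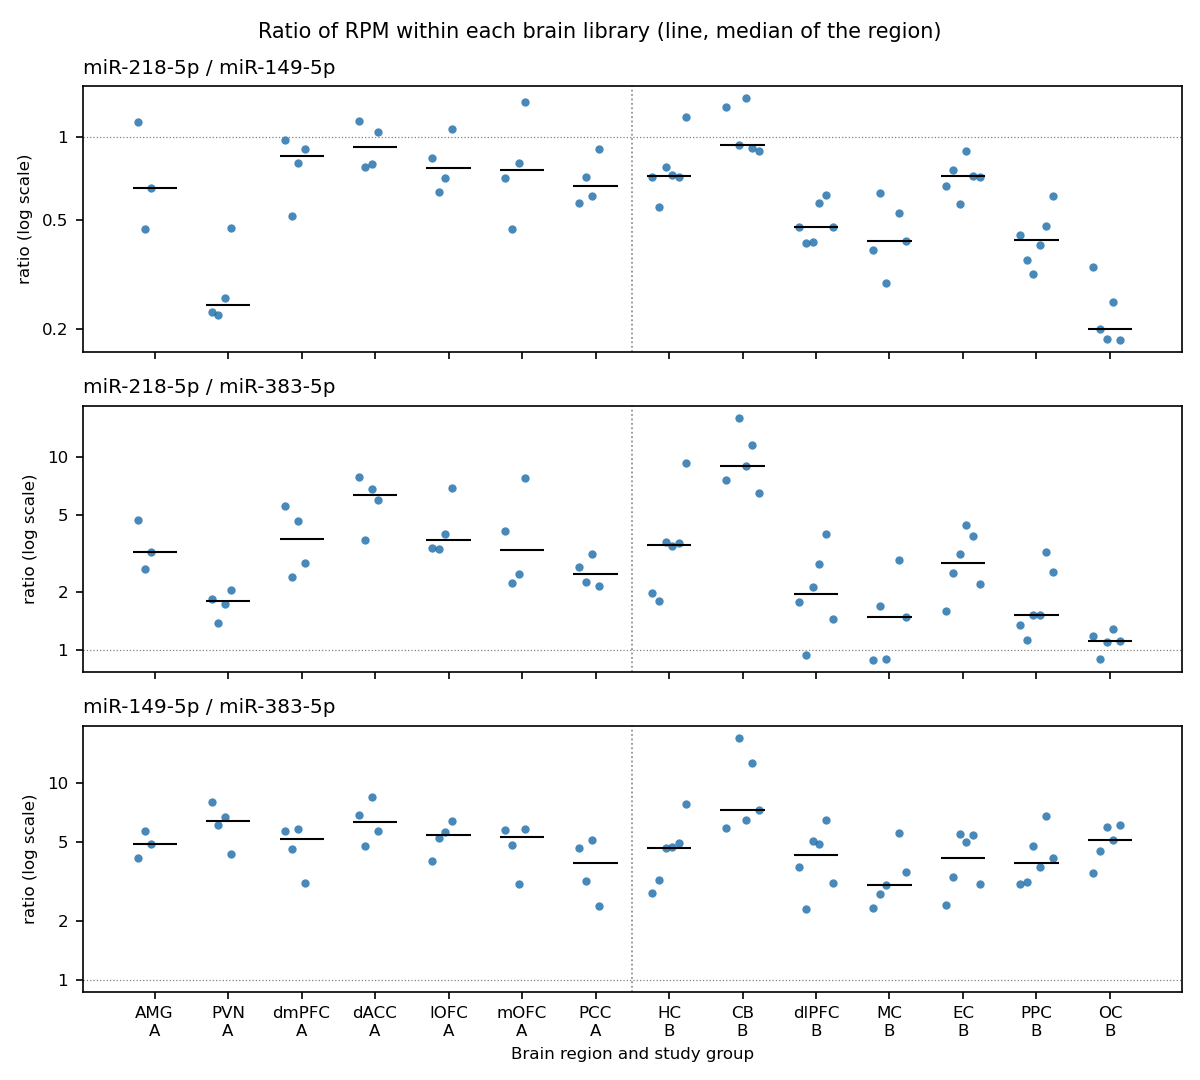
Ratio of RPM between 2 of the 3 miRNAs within each brain library (log axis), by region and study group, with a line at the median of the region. The CB has the highest median of hsa-miR-218-5p over hsa-miR-383-5p (9.03) and the PVN and OC the lowest medians of hsa-miR-218-5p over hsa-miR-149-5p (0.25 and 0.20).

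Some animals were highest or lowest in several regions, which was not tested. hsa-miR-149-5p was lowest in A4, whose libraries stood apart over many miRNAs, in all 6 of its regions. It was highest in B5 in 5 of 7 regions. hsa-miR-218-5p was highest in A1 in 5 of 7 regions and in B5 in 4 of 7. hsa-miR-383-5p was highest in A2 in 5 of 7 regions, and in Group B in B1 and B2 in 3 regions each, so the animal with the most of a member was not the same for all 3.

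After the mean of each animal was taken off, the members did not form a single group over the 66 brain libraries, which share animals, regions and the RPM total. hsa-miR-149-5p and hsa-miR-383-5p had a Pearson r of 0.603 (0.374 by the median of ratios). By RPM a higher r with hsa-miR-149-5p was found for 90 miRNAs, and a higher r with hsa-miR-383-5p for 88. In contrast, hsa-miR-218-5p had an r of −0.199 with hsa-miR-149-5p and −0.303 with hsa-miR-383-5p (−0.591 and −0.563 by the median of ratios). The 5 miRNAs most like hsa-miR-218-5p were hsa-miR-378a-3p (r of 0.785), hsa-miR-4446-3p, hsa-miR-378c, hsa-miR-103a-3p and hsa-miR-378d (0.624). Those most like hsa-miR-149-5p were hsa-miR-330-5p (0.823), hsa-miR-95-3p, hsa-miR-346, hsa-miR-744-5p and hsa-miR-744-3p (0.812), and those most like hsa-miR-383-5p were hsa-miR-1249-3p (0.843), hsa-miR-887-3p, hsa-miR-935, hsa-miR-92a-3p and hsa-miR-125b-1-3p (0.786). By the median of ratios, r was 0.58 to 0.77 for those named for hsa-miR-218-5p, 0.61 to 0.67 for hsa-miR-149-5p and 0.68 to 0.77 for hsa-miR-383-5p. In Group A alone, hsa-miR-4446-3p had an r of 0.38 with hsa-miR-218-5p (0.74 in Group B). In blood the miRNAs named as most like the members stood at widely different levels. Those most like hsa-miR-218-5p held 30.8 to 3493 RPM in PBMC of Group A, with hsa-miR-378a-3p at 1718 RPM. Of those most like hsa-miR-383-5p, hsa-miR-92a-3p held 30169 RPM and hsa-miR-1249-3p 26.6 RPM in Group A, while hsa-miR-887-3p and hsa-miR-935 were listed at 0 and hsa-miR-125b-1-3p held 1.30 RPM. Those most like hsa-miR-149-5p ran from hsa-miR-346, listed at 0 in Group A, to hsa-miR-744-5p at 388 RPM.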

How the data were processed

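Per the methods, adapters were removed and reads matched by the authors with bowtie, run inside mirDeep2 (tool versions not given in the sources used here), to human mature miRNAs of miRBase release 21. No mismatch was allowed (0), so baboon variants of a miRNA were not counted. Libraries below 500000 aligned reads were excluded, and a miRNA was listed where 80% of brain samples had 10 reads or more. The RPM values deposited by the authors relate reads to all mapped miRNA reads of the library, over its sequencing runs. The deposited count column gives the authors' sum of reads per miRNA over all libraries.

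Library totals were recovered as the number that turns RPM values up to 200.0 into whole reads (100% whole within 0.1 reads). Brain regions were compared with limma 3.58.1 on log2(RPM + 1) over all 362 miRNAs, each group apart and the animal as a block. Animals are identified in the labels of each library, and libraries of 1 animal deviated together (median r 0.265 to 0.836).

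The members and the marker lists (neuron, leukocyte, erythroid, oligodendrocyte, vascular, neuroendocrine, choroid plexus) were chosen with earlier results of these data known. Also named were, for each member, the 5 miRNAs with the highest r over brain libraries and leading miRNAs of the lists. Alternatives were edgeR 4.0.16 and DESeq2 1.42.0 on recovered reads, median of ratios, quantile normalization, other pseudocounts (0.1 and 10 RPM), a mean of at least 10 RPM, no block, 1 difference per animal, and leaving out an animal, the PVN, the CB, or the AMG and mOFC of A3. No sequences are printed.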

Additional observations from a re-analysis of the deposited data

Results flagged for a closer look

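Of 45 sets of 4 to 6 libraries, each of 1 member in 1 tissue of 1 group, 4 held a library far from the others, where chance gives about 1 in 20. hsa-miR-149-5p stood at 3.79 RPM in PBMC of A2, with 2.65 to 2.75 RPM in the other 3 animals, from 6 reads. hsa-miR-383-5p stood at 461 RPM in the dACC of A2, with 274 to 286 RPM in the other 3. In the CB of B3 hsa-miR-383-5p was 73.5 RPM, with 127 to 146 RPM in the other 4, and leaving out B3 changed the CB difference from −1.73 to −1.56. The 0.83 RPM of hsa-miR-383-5p in PBMC of B6 is 1 read, with 0 reads in the other 5.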

How the results depend on the processing

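Of the 15 called differences between a region and the others, 8 kept their direction and passed under all alternatives run for them: hsa-miR-218-5p in the PVN, OC, EC, HC and CB, hsa-miR-149-5p in the PVN and CB, and hsa-miR-383-5p in the CB. The share of all called miRNAs that kept their calls is not given here, so the 8 of 15 describes the members only. The values of the other 7 that follow did not pass, and unless stated the cause was not tested. With the median of ratios, DESeq2, edgeR and quantile normalization, which reduce the median shift (at most 0.13 was left, with edgeR in the PVN), hsa-miR-383-5p came to 0.069, 0.058, 0.17 and −0.069 in the PVN, to 0.24, 0.24, 0.22 and 0.22 in the EC and to 0.23, 0.23, 0.26 and 0.23 in the dlPFC. In the same order hsa-miR-149-5p came to −0.012, −0.017, −0.031 and 0.027 in the EC and to −0.18, −0.17, −0.21 and −0.15 in the PCC, and hsa-miR-218-5p to −0.15, −0.16, −0.20 and −0.16 in the PCC. Without the CB, hsa-miR-383-5p was 0.30 in the MC, 0.20 in the EC and 0.081 in the dlPFC and hsa-miR-149-5p 0.12 in the EC; without the PVN, hsa-miR-149-5p was −0.24 in the PCC. With 1 difference per animal, hsa-miR-149-5p was 0.22 in the EC and −0.39 in the PCC and hsa-miR-383-5p 0.53 in the MC. Leaving out an animal gave −0.44 to −0.26 for hsa-miR-218-5p and −0.53 to −0.27 for hsa-miR-149-5p in the PCC, 0.20 to 0.26 for hsa-miR-149-5p in the EC and 0.27 to 0.42 for hsa-miR-383-5p in the dlPFC, not all of which passed.

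Without the replicate block, which pairs the libraries of an animal, hsa-miR-218-5p (−0.37) and hsa-miR-149-5p (−0.42) in the PCC, hsa-miR-149-5p in the EC (0.22), hsa-miR-383-5p in the dlPFC (0.37) and hsa-miR-383-5p over the regions of Group A (a range of 0.84) did not pass. The block changed no other call of these contrasts.

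The range of hsa-miR-383-5p over the regions of Group A, 0.84 on the log2 scale, was 0.61 by the median of ratios, 0.61 with DESeq2, 0.58 with edgeR, 0.49 after quantile normalization and 0.44 without the PVN, none of which passed, and 0.77 to 1.07 without an animal. Those of hsa-miR-149-5p fell to 0.35 without the PVN and 0.24 without the CB. Without the PVN 70 miRNAs, against 250, differed over the regions of Group A. The 5 miRNAs most like a member shared 0 to 3 names with those of other settings. In blood the depth allows no difference between animals to be read for hsa-miR-383-5p.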
